A study of Rattus norvegicus with 36 samples.

Results

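Dorsal root ganglia of rats 28 days after ligation of the L5 spinal nerve were set against ganglia of sham-operated rats of the same day, on all 3 chip types of the Affymetrix RG_U34 set (A, B and C). The comparison takes the 2 arrays titled L5 and the 2 titled Sham on each chip, 12 of the 36 arrays of the series. The L5 arrays carry the ganglia whose own nerve had been tied. The sham arrays carry L4 and L5 ganglia together, so the spinal level and the ligation cannot be told apart where L4 and L5 ganglia differ. Each side is 1 RNA pool (of 30 rats in those labels that state it), put on 2 technical arrays per chip. The rats' strain, sex and age are not given in the sources used here. The remaining arrays carry the uninjured neighbouring L4 ganglia of ligated rats at 28 days, and L5, L4 and sham ganglia at 50 days. One sham array of chip B (replicate 1) is titled 28 days while its description says 50 days; the title was used. That array correlated at r = 0.952 with the other 28-day sham array of chip B and at 0.932 and 0.928 with the 50-day sham arrays.

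The dorsal root ganglion holds the cell bodies of sensory neurons, wrapped in satellite glia, with Schwann cells, resident macrophages, vessels and connective tissue between them. Tying a spinal nerve cuts the axons of nearly all neurons of that ganglion and is used in rats as a model of neuropathic pain. Axotomised sensory neurons are known to switch from their usual transmitter peptides and channels to injury-induced peptides and growth-related transcription factors, and macrophages are known to gather around them.

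The design left no biological replication, so no test was made and no p-value is given. A gene is called higher or lower below when the means of the 2 arrays differed at least 2-fold and both arrays of one pool lay beyond both arrays of the other. Differences are L5 minus sham in log2(signal + pseudocount), where the pseudocount is 12.8, 17.7 and 20.2 on chips A, B and C. The pseudocount makes folds of dim genes smaller than the ratios of their signals, and their size depends on it. The error given with a difference is the SD between arrays of the same pool, from the mean variance of the L5 and sham pools (n = 2 per pool). It is technical and says nothing about the spread between rats. Signals of different probe sets are not on one scale and are compared only between arrays. In pooled tissue, fewer cells of a type and less RNA per cell cannot be told apart.

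On each chip the 2 L5 arrays were less alike than the 2 sham arrays. The 2 arrays of a pool correlated at 0.924, 0.936 and 0.914 (L5) and 0.945, 0.952 and 0.928 (sham) on chips A, B and C. A single L5 array and a single sham array differed 2-fold or more at 13.5%, 6.87% and 8.17% of probe sets. The same share between the 2 L5 arrays was 10.4%, 4.31% and 5.78%, and between the 2 sham arrays 7.34%, 2.86% and 4.22%. Differences of that size were less common within a pool than between pools on each chip, but not rare. Both arrays therefore had to stand apart as well. That rule is a weak screen, as it left out only 4.38% of the probe sets whose means differed 2-fold. The spiked hybridisation controls averaged 10.46 and 10.40 (log2 signal) on the L5 arrays of chip B and 9.86 and 9.66 on its sham arrays.

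**Figure D1:**
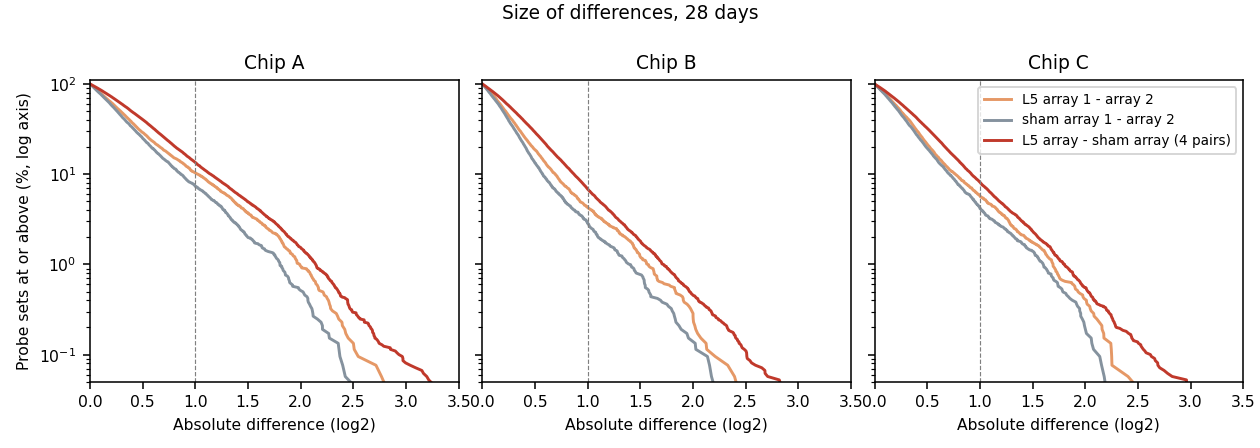
Share of probe sets (vertical log axis, %) whose absolute log2 difference is at or above the value on the horizontal axis, for chips A, B and C at 28 days. Lines show the 2 L5 arrays against each other, the 2 sham arrays against each other, and L5 arrays against sham arrays over the 4 possible pairs; the dashed line marks 2-fold, where on chip A the lines stand at 10.4%, 7.34% and 13.5%.

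Of 15722 probe sets measured above the filter, 439 were called higher and 368 lower in the L5 pool. On chip A, 225 were higher (4.29%) and 164 lower (3.13%), on chip B 95 (1.81%) and 106 (2.02%), and on chip C 119 (2.27%) and 98 (1.87%). Differences of 4-fold or more were called for 36 probe sets higher and 11 lower. Dim probe sets were called most often: on chip A, 10.6% of the 1748 dimmest and 5.32% of the 1748 brightest. Taking the brightest probe set of each of 8270 genes, 202 genes were higher (2.44%) and 182 lower (2.2%). These shares are the background for every list count below. Where a called gene had other probe sets above the filter (137 probe sets of 100 genes), 115 of them had the same sign (83.9%), 28 were themselves called the same way and 2 the opposite way. The filter used the mean over all arrays of a chip, so a gene bright in the L5 pool alone could pass through it: 102 genes did so, of which 33 were called higher, and 9 of the genes named below (Myh2, Ttn, C1qb, Gpnmb, Mpeg1, Irf7, Arg1, Reg3b and Il18). Their calls follow in part from the filter.

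The injury-induced neuropeptides had the highest median difference of the 45 lists. Single genes of other lists, such as Myh2 (3.37), differed more than any of them. Vip, Npy and Gal were called higher among the 5 measured members of that list, with a list median of 1.97, against -0.00 over all genes; with no filter the median of 6 members was 1.05. Crh, corticotropin-releasing hormone, was the member called lower. Adcyap1, the gene of the peptide PACAP, was not called. The stretches upstream of the start site of Vip, Npy and Gal, which were higher together, are shown from the RefSeq promoter table (build GRCr8) with the core letters TGACG of the cAMP-response element in capitals.
Vip (chr1:44470230-44470479, + strand): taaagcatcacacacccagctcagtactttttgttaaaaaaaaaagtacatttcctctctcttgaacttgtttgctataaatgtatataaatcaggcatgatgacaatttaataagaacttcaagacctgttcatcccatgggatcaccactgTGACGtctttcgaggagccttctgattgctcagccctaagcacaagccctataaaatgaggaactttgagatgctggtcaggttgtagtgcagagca
Npy (chr4:80211861-80212110, + strand): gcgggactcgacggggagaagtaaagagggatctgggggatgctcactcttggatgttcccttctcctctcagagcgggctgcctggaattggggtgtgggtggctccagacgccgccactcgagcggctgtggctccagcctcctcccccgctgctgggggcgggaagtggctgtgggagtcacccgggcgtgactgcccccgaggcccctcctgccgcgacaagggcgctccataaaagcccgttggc
Gal (chr1:210084573-210084822, - strand): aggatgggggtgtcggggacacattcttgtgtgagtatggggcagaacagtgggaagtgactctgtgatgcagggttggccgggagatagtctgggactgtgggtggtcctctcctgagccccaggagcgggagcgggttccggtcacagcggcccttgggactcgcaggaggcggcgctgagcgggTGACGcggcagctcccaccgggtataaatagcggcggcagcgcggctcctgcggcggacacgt
The search first asked for the full cAMP-response element TGACGTCA and the AP-1 element TGANTCA, on both strands, in the 250 bases upstream. It covered the 9 genes called higher among injury neuropeptides, axon injury transcription factors and axon regeneration genes, of which 5 (Vip, Npy, Gal, Crem and Reg3b) are in the table with 7 windows. Atf3, Jun, Arg1 and Csrp3 were not searched. No window held the AP-1 letters, which 6.34% of all 33469 windows hold. The full element stood in 2 windows, both of Crem, and is in 1.59% of all windows. Vip, Npy, Gal and Reg3b held neither. The shorter TGACG, which also lies inside the full element, was added after that result was known. It stood in 5 of the 7 windows (Vip, Gal and the 3 of Crem), against 18.2% of all windows. Npy and Reg3b held none of the 3 motifs. In Vip it began 97 bases and in Gal 63 bases upstream of the start.

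Vip encodes vasoactive intestinal peptide. Its signals were 1154 and 903 on the L5 arrays and 98.3 and 126 on the sham arrays, a difference of 2.98 ± 0.23, or 7.91-fold. The L5 arrays lay far above both sham arrays, and a second probe set was called the same way. Npy, neuropeptide Y, gave 1088 and 936 against 186 and 234, 4.61-fold higher (2.21 ± 0.19). Gal, galanin, gave 593 and 554 against 128 and 145, 3.93-fold higher (1.97 ± 0.10). None of these arrays overlapped between pools. Crh went the other way, at 23.8 and 9.8 against 69.7 and 58.7 (-1.42 ± 0.36). Adcyap1 gave 164 and 193 against 281 and 273 (-0.60), with arrays apart, and only 1 of its 3 probe sets had that sign.

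**Figure D2:**
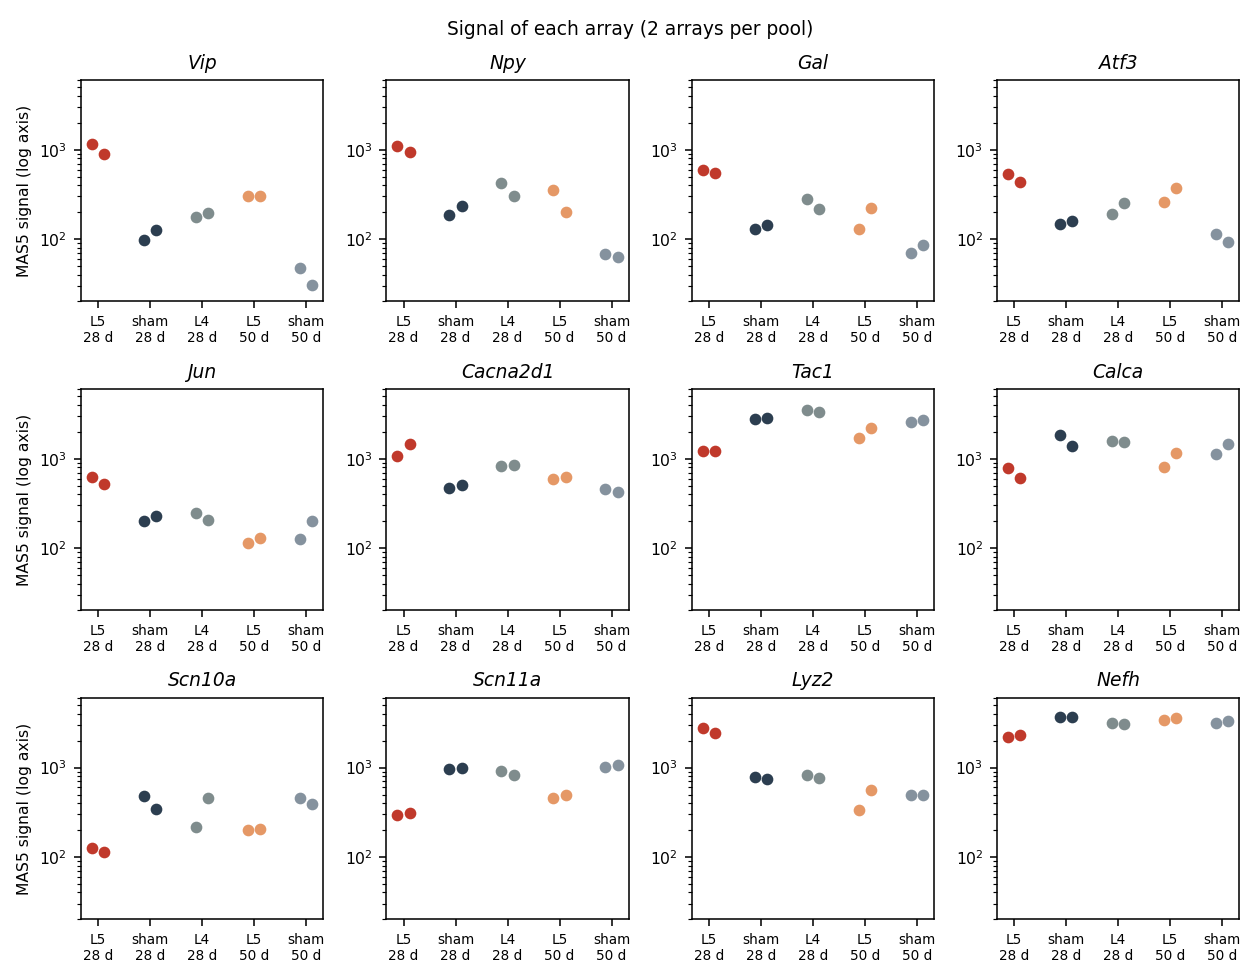
MAS5 signal (vertical log axis) of 12 genes on array 1 and array 2 of the L5, sham and L4 pools at 28 days and the L5 and sham pools at 50 days. For Vip the L5 arrays of 28 days stand at 1154 and 903 and the sham arrays at 98.3 and 126; for Tac1 the order is reversed, at 1213 and 1223 against 2808 and 2875.

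Among 20 measured transcription factors linked to axon injury, Crem, Atf3 and Jun were called higher (15.0%, against 2.44% of all genes). None was lower, and the list median was 0.23. Crem, a cAMP-responsive factor, gave 160.4 and 116 against 20.9 and 27.9, 4.03-fold higher (2.01 ± 0.25). The windows of Crem that hold the full element are shown. The element is in capitals and begins 56 and 35 bases upstream of the start.
Crem (chr17:58984547-58984796, + strand): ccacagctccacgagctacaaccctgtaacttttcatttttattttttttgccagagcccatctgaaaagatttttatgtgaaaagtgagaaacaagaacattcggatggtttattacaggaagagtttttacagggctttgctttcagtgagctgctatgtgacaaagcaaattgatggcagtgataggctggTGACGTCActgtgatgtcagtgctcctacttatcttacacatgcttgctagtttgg
Crem (chr17:58985240-58985489, + strand): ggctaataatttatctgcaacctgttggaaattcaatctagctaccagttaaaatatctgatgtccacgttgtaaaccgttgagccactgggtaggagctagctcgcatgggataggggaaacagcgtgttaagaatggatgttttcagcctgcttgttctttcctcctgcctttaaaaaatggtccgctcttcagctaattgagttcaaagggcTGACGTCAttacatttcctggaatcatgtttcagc
Atf3, a stress-induced factor widely used to mark axotomised neurons, gave 531 and 432 on the L5 arrays and 146 and 161 on the sham arrays (1.56 ± 0.16, 2.95-fold). Jun, its AP-1 partner, gave 619 and 525 against 199 and 229 (1.37 ± 0.15), and all 4 of its probe sets had that sign. Both genes stood apart on every array.

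Of 30 axon regeneration genes, Arg1, Csrp3 and Reg3b were higher, Cd24 was lower, and the list median was 0.27. Of all genes, 2.44% were called higher and 2.2% lower. Arg1 and Reg3b passed the filter through the L5 arrays alone. Without them only Csrp3 was called higher, 1 of 28, and the median was 0.23. Arg1, arginase, was dim in the sham pool, at 89.5 and 61.5 against 2.7 and 12.7 (2.13 ± 0.43). Csrp3, a muscle LIM protein that injured neurons can also make, gave 183 and 164 against 60 and 15.5 (2.04 ± 0.69), with the sham arrays far from each other; the muscle genes below were higher in the same pool and their part in this value was not tested. Reg3b, a secreted protein of the Reg family, gave 79.4 and 114 against 44.4 and 12.8 (2.82-fold). Cd24, a cell surface glycoprotein, gave 382 and 363 against 1051 and 1029, and all 3 of its probe sets were called lower. Gap43, the growth cone protein, stood apart but under the 2-fold line, at 3014 and 2476 against 1674 and 1561 (0.75 ± 0.15). Gadd45a, a DNA damage response gene, was close to it, at 235 and 271 against 128 and 127 (0.92); 3 of its 4 probe sets passed 2-fold although the brightest did not. Sprr1a, known as an outgrowth gene of injured neurons, overlapped between the pools at 390.5 and 496 against 391 and 489 on its brightest probe set, while a second was called higher.

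The transmitter peptides of uninjured sensory neurons lay on the other side. Of 11 measured, Tac1, Calca and Sst were lower (27.3%, against 2.2% of all genes) and none higher, with a list median of -0.76. Tac1, the precursor of substance P, gave 1213 and 1223 against 2808 and 2875, or 43.1% of sham (-1.21 ± 0.018). Calca, the gene of CGRP, gave 795 and 614 against 1829 and 1402 (-1.18 ± 0.26). Sst, somatostatin, gave 287 and 288 against 730.4 and 831 (-1.40 ± 0.092). Both probe sets of Tac1 and of Sst were called. Proteins that store and process peptides followed: of 13 granins and prohormone-processing genes, Pcsk2, Scg5, Scg2 and Chgb were lower and none higher (median -0.50). Scg5, the chaperone of the convertase PC2, had 356 and 346 against 901 and 937 (-1.36 ± 0.033), with arrays close within each pool. Pcsk2, PC2 itself, had 13.9 and 81 against 111 and 122, where the 2 L5 arrays disagreed widely. Of 11 neuropeptide receptors and 4 opioid and cannabinoid receptors, none was called in either direction. Cckbr, the cholecystokinin B receptor, gave 65.6 and 137 against 79.6 and 42.4, with overlapping arrays.

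Ion channels were lower more often than higher, where 2.2% of all genes were called lower and 2.44% higher. Of 24 measured potassium channel genes, 8 were lower and none higher, with a median of -0.80, and 21 lay below 0. With no filter, 42 genes were measured, 8 again lower and 1 higher, and the median was -0.13. They were Kcna1, Kcna5, Kcnab1, Kcnd1, Kcnd3, Kcnj11, Kcns1 and Kcns3. Kcnab1, an auxiliary subunit of Kv1 channels, gave 129 and 146 against 476 and 554 (-1.78 ± 0.13). Kcna1, an axonal Kv1 channel, gave 321 and 410.3 against 725 and 939 (-1.16 ± 0.25), and both of its probe sets were called. Kcnd3, an A-type channel, gave 77.5 and 30 against 234 and 172 (-1.78 ± 0.58); its second probe set had the opposite sign. Kcns1, a silent modulatory subunit, gave 36.9 and 104 against 232 and 194. Kcnj11, the pore of ATP-sensitive channels, gave 30.6 and 25.1 against 85.5 and 156 (-1.67 ± 0.40).

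Sodium channels showed 3 of 10 lower and none higher (median -0.44). Scn10a and Scn11a encode the tetrodotoxin-resistant channels Nav1.8 and Nav1.9 of nociceptors. Scn10a gave 126 and 113 against 480.2 and 342, 31.6% of sham (-1.66 ± 0.25). Scn11a gave 293 and 314 against 954 and 989.9, 32.1% of sham (-1.64 ± 0.054). Scn1a, found in large myelinated neurons, gave 144 and 70.6 against 344 and 387 (-1.72 ± 0.46). All 3 stood apart on every array. Scn9a, which encodes Nav1.7, was nearer to sham at 198 and 199.7 against 291 and 269 (-0.47), with its second probe set of opposite sign. Scn3a, an embryonic channel known to reappear after axotomy, overlapped at 121 and 67.1 against 81.3 and 103.

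Among calcium channel genes Cacna2d1 was higher, the calcium channel alpha2delta-1 subunit to which gabapentin binds. It gave 1065 and 1463 against 464 and 502, 2.54-fold higher (1.35 ± 0.23). Cacna2d1 was the one called gene of the 9 measured (median -0.03), where 4.64% of all genes were called in either direction. None of 14 transduction and pacemaker channels was called. Trpv1, the capsaicin receptor, gave 43.8 and 96.5 against 135 and 109 (-0.77 ± 0.50), and P2rx3, the ATP receptor of nociceptors, gave 318 and 352 against 476 and 441 (-0.44 ± 0.089). Both were lower with arrays apart but within 2-fold. Of 9 nicotinic receptor genes, Chrna3 was lower at 11.4 and 48.7 against 134 and 145 (-1.98 ± 0.67) and Chrnd, a subunit of muscle receptors, was higher at 41.1 and 82.9 against 8.5 and 32.6 (1.21 ± 0.69), but not against both sham pools. None of 18 GABA and glutamate receptor genes, 26 neurotrophic factors and receptors or 17 sympathetic and monoamine genes was called. Gch1, the first enzyme of tetrahydrobiopterin synthesis, overlapped at 62.6 and 21.9 against 13.2 and 77.1.

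Pumps and calcium handling gave calls in both directions, where 2.44% of all genes were called higher and 2.2% lower. Atp2b3 and Atp2b4, plasma membrane calcium pumps, were lower at 83.4 and 173 against 486 and 469 (-1.87 ± 0.48) and 13.3 and 19.8 against 66.2 and 71 (-1.48 ± 0.17). Slc8a1, the sodium-calcium exchanger, was higher at 306 and 391 against 92.2 and 232, with wide sham arrays, and was not called against both sham pools. Among 31 calcium-binding and signalling genes, Vsnl1, Tesc and Camk2g were lower and S100a4 higher. Vsnl1, visinin-like 1, gave 169 and 136 against 708 and 573 (-1.93 ± 0.20) and both of its probe sets were called. Tesc, tescalcin, gave 110.4 and 59.3 against 306 and 279.5 (-1.70 ± 0.39). S100a4 was bright and close between arrays, at 3924 and 3721 against 1580.4 and 1431 (1.34 ± 0.08).

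Some markers of sensory neuron classes were called lower. Of 8 peptidergic nociceptor markers 3 were lower (Tac1, Calca and Scn10a, median -0.69). Of 8 non-peptidergic markers 1 was lower (Scn11a, median -0.45), and of 13 large-diameter neuron markers 3 (Scn1a, Kcna1 and Vsnl1, median -0.70). All of these calls were already given above under other lists, so they add no further genes. None of 17 general neuronal markers was called. Their median was -0.27, and 10 had arrays apart on the lower side, as had 2244 of all 8270 genes. Summed signals of the peptidergic list were 6366 and 6748 on the L5 arrays and 10773 and 9509 on the sham arrays, and those of the large-diameter list 7440 and 6518 against 12036 and 10954. Both sums lay below sham on both arrays. Of 30 cytoskeletal genes, Dpysl4 and Cdk5 were lower (6.67%, against 2.2% of all genes) and none higher (median -0.34). Dpysl4, a collapsin response mediator, gave 106 and 15.4 against 280.3 and 259 (-2.29 ± 1.04), with L5 arrays far from each other. Cdk5, a neuronal kinase, gave 22.7 and 18.6 against 109 and 106 (-1.85 ± 0.09). Nefh, heavy neurofilament, stayed within 2-fold at 2189 and 2303 against 3653 and 3650.2 (-0.70). For Nefl, light neurofilament, a probe set that is not its brightest gave 896 and 816 against 3366 and 3049 (-1.89 ± 0.10), while the brightest had the opposite sign. Among 37 synaptic vesicle genes 5 were lower (13.5%, against 2.2% of all genes) and none higher (median -0.09). Vamp1, a vesicle SNARE, gave 1451 and 1497 against 3578 and 3918 (-1.33 ± 0.069), and all 5 of its probe sets had that sign. Nsf, the SNARE-disassembling ATPase, gave 302 and 341 against 760.3 and 904 (-1.31 ± 0.15).

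Of 18 macrophage markers that passed the filter, 9 were called higher: Aif1, Csf1r, Ctss, Fcer1g, Tyrobp, Lyz2, C1qa, C1qb and Mrc1. That is 50.0% of the list, against 2.44% of all genes, and none was lower. The median of the 18 markers was 1.02. Of these, 2 passed the filter through the L5 arrays alone; of the other 16, 7 were called and the median was 0.91. With no filter, 12 of 24 were called higher and 23 lay above 0. C1qb, a chain of the complement C1q complex, gave 269 and 206 against 33.6 and 14.6 (2.80 ± 0.42). Lyz2, lysozyme, gave 2799 and 2434 against 784 and 742 (1.76 ± 0.11). Ctss, the lysosomal protease cathepsin S, gave 876 and 809 against 212 and 239.5 (1.84 ± 0.10). The summed signal of the list was 8004 and 7535 on the L5 arrays against 3054 and 3221 on the sham arrays, with no overlap. Gpnmb, a glycoprotein of lipid-laden phagocytes, gave 309 and 310.2 against 40.6 and 19.1 (2.75 ± 0.31), and Mpeg1, macrophage perforin, gave 193 and 168 against 34.5 and 37.5 (1.84 ± 0.10).

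Some antigen presentation and complement genes were called higher in the same pool, where 2.44% of all genes were. Of 11 MHC class II genes 5 were higher (median 1.00), and of 12 complement genes 5 were higher (median 0.26), or 4 of 11 without C1qb, which passed the filter through the L5 arrays alone. RT1-Da, a class II chain, gave 2094 and 2036 against 447 and 515 (2.08 ± 0.10), and both of its probe sets were called. Cd74, the class II invariant chain, depended on the probe set: one on chip A gave 876 and 863 against 128 and 145 (2.57) and the brightest, on chip C, 814 and 713 against 335 and 353 (1.10). C1s, a complement protease, gave 774 and 723 against 298 and 195 (1.58 ± 0.29), and C2 gave 153 and 212 against 65.2 and 20.4 (1.82 ± 0.60). None of 18 MHC class I and immunoproteasome genes was called (median 0.18). Of 25 cytokines and chemokines, Cxcl14, Il18, Ccl6 and Cxcl13 were higher (median 0.22). Without the 2 that passed the filter through the L5 arrays alone, Il18 among them, 3 of 23 were called. Cxcl14, a chemokine, gave 502 and 529.6 against 76.4 and 91.6 (2.45 ± 0.12). Of 7 T lymphocyte markers, Il2rb alone was called, at 103 and 65.2 against 35.1 and 10.8; its sham arrays lay far apart, and it was not called against both sham pools. Interferon-responsive genes named by size were Irf7, at 101 and 193 against 22.4 and 19.3 (2.19 ± 0.43), and Mx2, at 921 and 817 against 128 and 212 (2.27 ± 0.34). The macrophage sum above was also higher in the L5 pool of 28 days. On the 50-day sham arrays the sum was 2907 and 2763. There the brightest Cd74 probe set gave 776 and 938, that of chip A 24.5 and 126, and RT1-Da 344 and 347. The part of macrophages in these values was not tested.

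Skeletal muscle genes gave the most calls of any list, with 14 of 24 higher (58.3%, against 2.44% of all genes). None was lower, and the median was 1.57. Without the 2 that passed the filter through the L5 arrays alone, 12 of 22 were called and the median was 1.34; with no filter, 16 of 35 were called and the median was 0.95. Myh2, a fast muscle myosin, gave 204 and 159 against 5.2 and 6.5 (3.37 ± 0.18). Its sham signals lay below the pseudocount, which sets the size of its difference: with a pseudocount at the 40th percentile it was 2.31, against 2.78 for Acta1. Acta1, skeletal actin, gave 1507 and 1474 against 222 and 153 (2.93 ± 0.25), and Ttn, titin, gave 259 and 244 against 34.6 and 9.1 (2.85 ± 0.48). Atp2a1, the calcium pump of fast muscle, gave 314 and 296 against 49.4 and 50 (2.34 ± 0.041). Car3, carbonic anhydrase 3 of muscle and fat, gave 1805 and 1784 against 259 and 312 (2.57 ± 0.13), with a second probe set of opposite sign. The summed muscle signal was 7918 and 8034 in the L5 pool and 3583 and 3218 in the sham pool of 28 days. It was 4337 and 4786 in the L4 pool, 5034 and 5009 in the 50-day sham pool and 6653 and 6102 in the 50-day L5 pool. The 28-day sham arrays were the lowest of these. How much muscle tissue was in each pool is not recorded, and its part in these values was not tested.

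**Figure D3:**
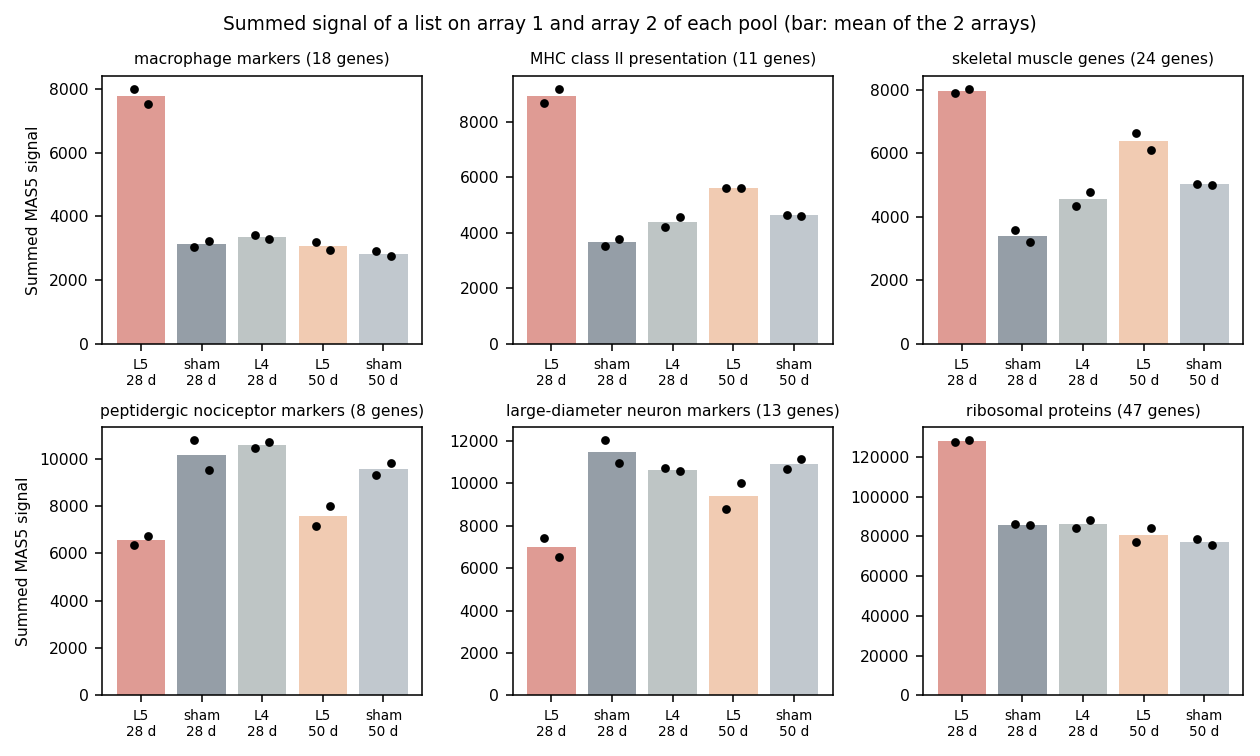
Summed MAS5 signal (vertical axis from 0) of 6 gene lists in 5 pools; bars are the mean of the 2 arrays and dots the arrays. Macrophage markers stand at 8004 and 7535 in the L5 pool of 28 days and at 3054 and 3221 in its sham pool, and ribosomal proteins at 127404 and 128478 against 86120 and 85613.

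Lists of glia, matrix and vessels gave calls for single members, against 4.64% of all genes called in either direction. None of 12 myelinating Schwann cell markers was called (median 0.37). Of 9 repair Schwann cell markers only Jun was called, and of 10 satellite glia markers only Fabp7, a fatty acid binding protein, which was lower at 59.2 and 67.1 against 142 and 236 (-1.38 ± 0.35). Of 16 collagens, Col5a2 and Col8a1 were higher (median 0.45); Col5a2 gave 1163 and 905 against 418 and 565 (1.06 ± 0.28). Of 30 matrix glycoproteins and proteoglycans, Thbs4, a thrombospondin, was higher at 563 and 529.9 against 250.5 and 141 (1.47 ± 0.39), and Fbln2, fibulin 2, was lower at 202 and 258 against 613 and 678 (-1.43 ± 0.18). Of 17 fibroblast and vessel markers only Icam1 was called, with 1 of its 2 probe sets of that sign and not against both sham pools. None of 8 red cell genes, 6 fat cell genes or 4 B cell and neutrophil markers was called.

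Housekeeping groups differed by small amounts that were shared over their members. All 47 ribosomal protein genes lay above 0, 40 of them with arrays apart, at a median of 0.49; 3 were called higher. Of 66 oxidative phosphorylation genes 55 lay below 0, 38 of them with arrays apart, at a median of -0.28, and 1 was called lower. Of 25 cholesterol synthesis genes 22 lay below 0 (median -0.47), and Mvk, mevalonate kinase, was called lower at 28.2 and 29.4 against 139 and 83. Over all 8270 genes, 4118 lay above 0. Arrays stood apart on the higher side for 2054 of them and on the lower side for 2244, and 2.44% were called higher and 2.2% lower. MAS5 signals are relative to each array's mean, so a shift of many genes together depends on the scaling: with the arrays scaled on spiked hybridisation controls the median of all genes moved to -0.36 and that of the ribosomal list to 0.15, with 34 of 47 above 0.

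**Figure D4:**
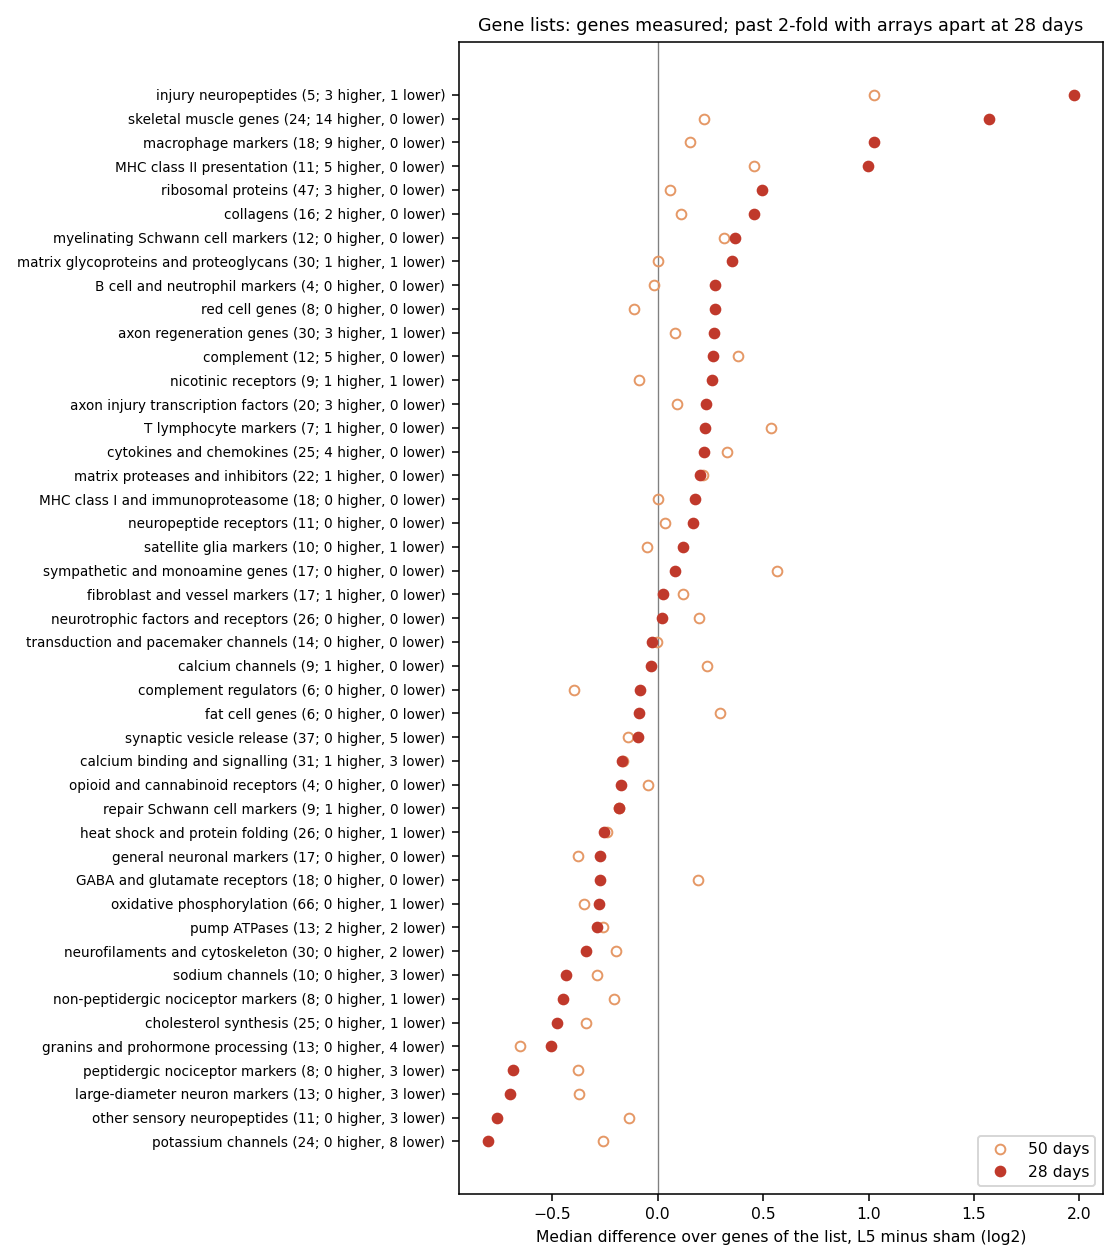
Median log2 difference between L5 and sham (horizontal axis) for each of 45 gene lists, at 28 days (filled) and 50 days (open); brackets give the genes measured and those called higher and lower at 28 days. Injury neuropeptides (1.97), skeletal muscle (1.57), macrophage markers (1.02) and MHC class II (1.00) are highest, and potassium channels (-0.80) lowest; with no filter these medians are 1.05, 0.95, 1.02, 0.97 and -0.13, and large-diameter neuron markers (-0.70) are lowest.

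Beyond the lists, the largest lower calls on chip A included Pth1r, the parathyroid hormone receptor, at 24.7 and 11.7 against 130.5 and 124 (-2.21 ± 0.31), with 2 of 3 probe sets of that sign. Faim2, a neuronal inhibitor of Fas signalling, gave 27.6 and 12.5 against 123 and 126 (-2.11 ± 0.34). Apoa1, an apolipoprotein, gave 11.9 and 11.7 against 91.8 and 72.2 (-1.94 ± 0.15). A dimmer probe set of Isl1, a sensory neuron transcription factor, gave 13.8 and 13.9 against 72.5 and 104 (-1.91 ± 0.23). In each of these both L5 signals were under 30, close to the pseudocount, so their folds are understated.

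On chip B the largest lower calls included Hpse, heparanase, at 11.3 and 13.8 against 105 and 139 (-2.20 ± 0.19), and Tomm40, the mitochondrial import pore, at 38.7 and 36.7 against 224 and 202 (-2.06 ± 0.073). Cdh3, a cadherin, gave 21.2 and 22.3 against 122 and 129.6 (-1.86 ± 0.046), and Fgf12, an intracellular partner of sodium channels, gave 149.7 and 236 against 504 and 587 (-1.45 ± 0.32). Higher calls on that chip included Adss1, an adenylosuccinate synthase of muscle, at 159 and 165 against 31.7 and 7.1, and Kif22, a kinesin, at 753 and 753 against 219 and 169 (1.88 ± 0.17). On chip C, Prc1, a regulator of cell division, was higher at 163 and 252 against 35.8 and 43.1 (1.91 ± 0.30). Rcan2, a calcineurin regulator, was lower at 22.9 and 13.1 against 147 and 121 (-2.02 ± 0.22), with both probe sets called. Dym was lower at 135 and 229 against 546 and 690 (-1.69 ± 0.38).

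At 50 days the same comparison can be made between pools that share no sample with those of 28 days. There, 201 genes were higher (2.43%) and 211 lower (2.55%). Of the 202 genes higher at 28 days, 29 were also higher at 50 days, 14.4% of each list, and 160 had the same sign (79.2%, against 49.0% of all genes above 0). Of the 182 lower genes, 30 were also lower, 16.5% of the 28-day and 14.2% of the 50-day list, and 150 had the same sign (82.4%, against 51.0%). Medians of the 28-day genes went from 1.28 to 0.36 and from -1.25 to -0.56; genes picked for their size at 28 days are bound to look smaller elsewhere. Across the 8270 genes the differences of both days correlated at r = 0.327, as a description over genes that share arrays.

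Vip was 2.46 and Npy 1.85 at 50 days, against 2.98 and 2.21 at 28 days. Atf3 was 1.48, close to its 1.56 at 28 days, while Jun was -0.37 with overlapping arrays. Scn11a was -1.11 and Scn10a -1.01, both again called lower. Tesc, at -2.31, and Chrna3, at -2.01, were lower at both days. The 50-day L5 arrays of Tesc disagreed widely, at 19.5 and 176 against 414.5 and 336 on the sham arrays. The macrophage list had a median of 0.15 at 50 days and 1 called gene, and the muscle list 0.22 with 1 gene called lower and none higher. Whether the days differ was not tested.

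**Figure D5:**
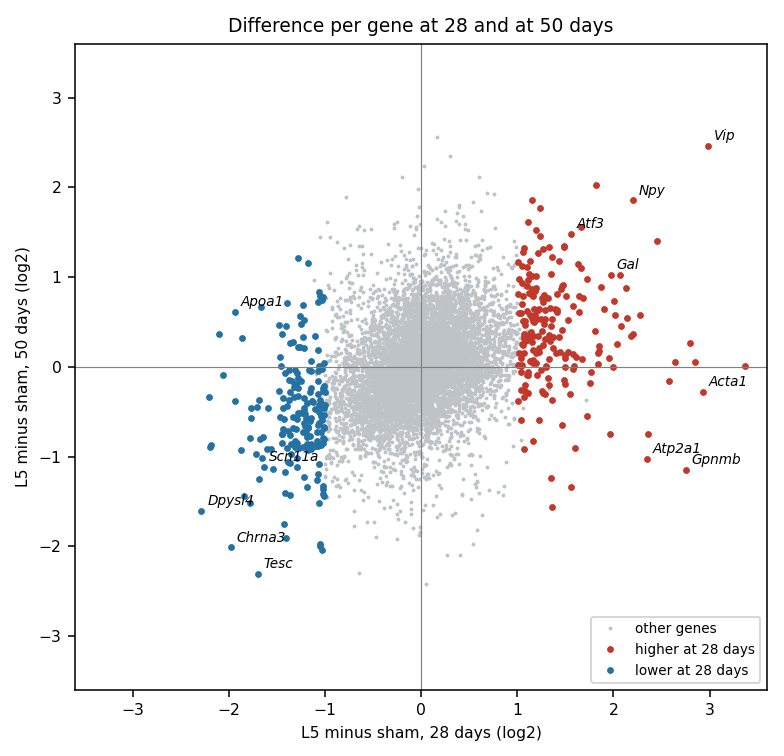
Difference between L5 and sham per gene (log2) at 28 days (horizontal) and 50 days (vertical) for 8270 genes; red and blue points are genes called higher or lower at 28 days. Vip (2.98 and 2.46) and Npy (2.21 and 1.85) are high at both days, while Acta1 (2.93 and -0.28) and Gpnmb (2.75 and -1.15) are high at 28 days alone.

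The 28-day sham pool also serves as the reference for the L4 ganglia and for the 50-day sham ganglia, so values of those comparisons share its deviations and are given side by side only. L4 against that pool gave 61 genes higher (0.738%) and 45 lower (0.544%), and the 50-day sham pool against it 111 higher (1.34%) and 98 lower (1.19%). In L4, Vip was 0.66, Npy 0.74, Gal 0.80 and Cacna2d1 0.78, with none of these called. Other genes named above were called in L4 too. Among them Arg1 (1.73), Irf7 (1.28), Csrp3 (1.19), Cd74 on its brightest probe set (1.12), Prc1 (1.08) and Crem (1.03) were higher. Mvk (-1.59) was lower. The Cd74 probe set named on chip A gave 0.59 in L4 and was not called. Muscle genes had medians of 0.59 in L4 (6 called higher) and 0.76 in the 50-day sham pool (9 called higher), and macrophage genes -0.01 and -0.02. Because the sham pools differ, L5 was also set against both, asking for 2-fold from their mean and both L5 arrays beyond all 4 sham arrays; this was chosen after the difference was seen. It gave 233 genes higher and 194 lower, and kept 134 of the 202 higher (66.3%) and 147 of the 182 lower genes (80.8%). It kept the counts of 14 muscle, 9 macrophage, 5 complement and 8 potassium channel genes and 3 injury neuropeptides. Of the named called probe sets 10 were not called this way. They were the brightest of Cd74 (chip C) and those of RT1-Db1, Il2rb, Chrnd, Slc8a1, Icam1, Col8a1, Rpl36a, Ppp2r2d and Hsph1. Of these, the probe sets of Cd74, Il2rb, Chrnd, Slc8a1, Icam1 and Ppp2r2d were themselves called higher in the 50-day sham pool. The Cd74 probe set named on chip A was called against both sham pools (3.09) and called lower in the 50-day sham pool (-1.05). The MHC class II count went from 5 to 3, and the higher counts of collagens went from 2 to 5, of matrix glycoproteins from 1 to 8 and of red cell genes from 0 to 3.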

How the data were processed

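Total RNA of pooled rat dorsal root ganglia was hybridised to Affymetrix RG_U34 arrays of chip types A, B and C. The deposited values are linear signal intensities. Per the submitters' processing notes the tool was MAS5, with no version stated there. In those tables the trimmed mean of every array (2% off each end) was already about equal. Without detection calls, absence of a transcript was not judged, and the number of arrays limits the precision.

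Each array was scaled to a common trimmed mean within its chip type and put on the scale log2(signal + pseudocount), with each chip's 20th percentile of signals as pseudocount. Control probe sets and probe sets with a mean signal under the 40th percentile were left out, leaving 5244, 5239 and 5239 on chips A, B and C. A gene is its brightest probe set with 1 gene in the platform annotation (7006, 5351 and 5821 probe sets; 308, 38 and 45 had several genes and 1426, 3343 and 2864 none). The rules were tested on simulated data with equal noise at every probe set of a chip. That run does not give their error rate on these arrays. Python 3.11.15, numpy 2.4.6 and pandas 2.3.3 were used.

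Genes named by size were called, with arrays at least 1 log2 unit apart and the higher pool above the chip's median. They were the 10 highest and 10 lowest on chip A, and 6 and 6 on B and on C. Up to 4 called members of each of 45 lists in each direction were named without these extra rules. The 25 fixed genes, 24 of them measured, were named whatever their values. Of 101 named called probe sets, 74 had arrays at least 1 log2 unit apart. The members and lists were chosen with earlier results of these data known. The motif TGACG, the comparison with both sham pools, the counts without genes that pass the filter through the L5 arrays alone and the scaling table of the lists were added after values had been seen. Alternatives covered the pseudocount, filter, scaling, size rule, probe set choice and leaving out each array.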

Additional observations from a re-analysis of the deposited data

Results flagged for a closer look

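In 7 of the named genes called at 28 days, both L5 arrays lay on one side of both sham arrays at 28 days and on the other side at 50 days; whether the days differ was not tested. Acta1 went from 2.93 at 28 days to -0.28 at 50 days, and Atp2a1, the other muscle gene, from 2.34 to -1.03. The summed muscle signal was 5034 and 5009 on the 50-day sham arrays and 3583 and 3218 on those of 28 days; its part in this was not tested. Gpnmb went from 2.75 to -1.15. Among lower genes, Faim2 went from -2.11 to 0.37, Apoa1 from -1.94 to 0.62, Cdh3 from -1.86 to 0.32 and Kcnj11 from -1.67 to 0.67.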

How the results depend on the processing

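The counts of 439 probe sets higher and 368 lower depended on the size rule and the treatment of dim values. A pseudocount at the 40th percentile gave 212 and 165, a filter at the 60th percentile 216 and 231, and no filter 859 higher. A fold of at least 1.5 gave 1430 and 1319, a fold of at least 3 gave 85 and 48, and arrays at least 1 log2 unit apart gave 153 and 120. Scaling on hybridisation controls gave 184 higher and 1408 lower and moved the median of all genes to -0.36. The share of higher calls was 54.4%, and 61.5% with no filter, 48.3% with the stricter filter, 48.2% with quantile normalization, 47.2% with median centring and 11.6% with hybridisation controls. Leaving out 1 array gave 462 to 553 higher and 380 to 500 lower, because fewer arrays then have to stand apart. By chip, over 1.5 times more calls came without L5 replicate 1 of chip A (339 and 296) or replicate 2 (256 lower), without L5 replicate 2 of chip B (193 lower), without sham replicate 2 of chip B (158 higher) or of chip C (213 higher), and without L5 replicate 1 or 2 of chip C (163 and 180 lower). Against both sham pools, an alternative added after seeing the data, 432 were higher and 375 lower. No called named gene changed sign; Scn3a, Sprr1a and Gch1, whose pools overlapped, did (without 1 array, Scn3a reached 0.36, Sprr1a -0.16 and Gch1 -0.81). Of 101 named called probe sets, 88 were called the same way with the larger pseudocount, 95 with quantile normalization, 95 with median centring and 89 with hybridisation controls, and 71 of the 71 that passed the stricter filter. Leaving out 1 array ended the call of 24 named genes in at least 1 case: Calca, Camk2g, Chgb, Chrnd, Col5a2, Col8a1, Cxcl13, Hsph1, Icam1, Il18, Il2rb, Kcna1, Kcns1, Pcsk2, Rab3c, Reg3b, Scg2 and Slc8a1 on chip A, Ccl6 and Rps3 on chip B, and Ndufs3, RT1-Db1, Rpl11 and Rpl36a on chip C. With hybridisation controls the macrophage list had 6 called genes, the class II list 2, the cytokine and chemokine list 1 and the muscle list 12. With them the medians of the axon injury transcription factors and the regeneration genes turned to -0.05 and -0.10. With median centring no ribosomal gene and no collagen was called. No paired analysis was possible because each side is 1 pool and no test was made.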
